A study of Bos taurus with 6 samples.

Results

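The genes described here encode the matrix metalloproteinases (MMP), the ADAMTS proteases and the tissue inhibitors of metalloproteinases (TIMP). They were taken by gene symbol, as MMP, ADAMTS or TIMP followed by a number, a rule that uses no measured value. Of the 23475 genes listed, 43 were members, namely 20 MMP genes, 19 ADAMTS genes and 4 TIMP genes. Bovine preadipocytes, the precursor cells of adipocytes, had been isolated with collagenase from the subcutaneous fat of premature calves and grown in serum-containing medium. In the agomir group, 3 samples were transfected with bta-miR-484 agomir, a modified RNA duplex that mimics this microRNA and increases its amount in the cell. In the agomir NC group, 3 samples received the negative control of the same kind of molecule. All 6 were collected 48 h after transfection for RNA sequencing, and the comparison asks which RNAs differ when more bta-miR-484 is present.

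MMPs are zinc-dependent enzymes that cut collagens, proteoglycans and other proteins of the extracellular matrix, and most are made as inactive proenzymes. ADAMTS proteases are secreted relatives with thrombospondin repeats, and their substrates include procollagens and large proteoglycans. TIMPs bind the active site of MMPs, and the remodeling of the matrix around preadipocytes is a known part of fat tissue growth.

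Levels are given as FPKM, fragments scaled by transcript length and by the mapped fragments of the library, so that genes can be compared per length. Differences between groups are log2 fold changes of agomir over agomir NC on the log2(FPKM + 0.5) scale, a scale on which changes of low genes come out too small. Testing with limma, two-sided, was limited to genes whose mean over the 6 libraries reached 0.5 FPKM, which left 12422 genes and 24 members. Depth is unknown, because FPKM values hold no read numbers. With 3 libraries per group, the exact permutation test has p = 0.1 as its smallest value, so it stands only as a description beside limma. Fat tissue was taken from 3 calves, but the sources do not say whether the 3 samples of a group are from separate calves or separate cultures. The p-values measure only the spread between these samples, which may be technical. Differences in bulk RNA do not tell apart fewer cells of a type and less RNA per cell.

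The library of agomir NC replicate 3 stood apart from the others. Its FPKM values summed to 379361, against 365977 to 369489 in the other 5 libraries. The 10% of tested genes with the shortest genomic span deviated there by a median log2 value of 0.05 from their mean over the 6 libraries, and the 10% with the longest span by -0.04. Agomir replicate 2 deviated the opposite way, with median log2 values of -0.03 for the shortest genes and 0.05 for the longest. Where leaving out a library changed a call on a member, the value without it is given.

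The labels call the cells adipocytes, whereas the study's text also calls them preadipocytes. Mesenchymal markers were abundant, with a sum of 9911 to 10826 FPKM over 8 genes per library, of which COL1A1 was the highest at a mean of 5979 FPKM. DLK1, a preadipocyte marker in that list, was listed at 0 in all 6 libraries. Markers of mature adipocytes summed to 6.66 to 8.51 FPKM over 6 genes. Of these, ADIPOQ, LEP and CIDEC were each under 0.5 FPKM in every library. LPL at 3.48 to 4.33 FPKM, FABP4 at 1.54 to 3.57 FPKM and PLIN1 at 0.974 to 1.56 FPKM made up most of the sum. The endothelial markers summed to 3.93 to 4.83 FPKM over 6 genes, most of it from VWF, with PECAM1 and CDH5 under 0.2 FPKM throughout. Leukocyte markers summed to 7.09 to 8.39 FPKM, mostly CD14, and PTPRC reached no more than 0.119 FPKM. Smooth muscle and pericyte markers summed to 211 to 241 FPKM, most of it ACTA2. CNN1 was at 11.4 to 17.3 FPKM and NOTCH3 at 2.91 to 3.36 FPKM, with MYH11, DES and RGS5 under 0.5 FPKM. Epithelial markers summed to at most 0.414 FPKM. Each of these sums overlapped between the groups, although that of the mesenchymal markers is mostly COL1A1.

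Among the MMP, ADAMTS and TIMP genes, TIMP3 was the member that separated the groups most clearly, with a mean 13.6% higher in the agomir libraries. Its unadjusted p in limma was the only one under 0.05 among the members, and it did not pass adjustment over all genes. MMP2, the most abundant member, lay slightly lower in every agomir library than in any agomir NC library, but limma's p was above 0.05. The other 4 members with a mean of at least 100 FPKM differed by less than 7% between the group means.

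Of the 24 members tested, 1 was higher at an unadjusted p under 0.05, a share of 4.17%, against 824 of all 12422 genes tested, or 6.63%. None of the 24 was lower, whereas 535 of all genes were, or 4.31%. With limma's p-values adjusted by the Benjamini-Hochberg method, 0 members and 1 gene in all (0.00805%) were under 0.05. No member had both an unadjusted p under 0.05 and a fold change of at least 1.5, a pair of conditions met by 34 genes in all (0.274%). All 3 agomir libraries lay above all 3 agomir NC libraries for 2 members, TIMP3 and ADAMTS2, which is 8.33% of those tested against 10.9% of all genes. For another 2 members, MMP2 and ADAMTS4, they lay below, again 8.33% against 6.36% of all genes. With 24 members, shares of 1 or 2 genes lie near those of all genes. The median log2 fold change of the members tested was 0.07, with 16 above 0 and 8 below, beside a median of 0.01 over all genes with 6840 above 0 and 5582 below. After median-ratio scaling, 15 members were above 0 and 9 below, with a median of 0.05. The median was 0.04 after a correction for gene span, and without agomir NC replicate 3 it was 0.02, with 14 above 0 and 10 below. That scaling also turned the balance of all genes at an unadjusted p under 0.05 from 824 higher and 535 lower to 641 higher and 721 lower, and with the span correction these were 654 and 660.

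The members covered a wide range of levels. At 100 FPKM or more there were 6 members, in descending order MMP2, TIMP1, TIMP2, MMP14, TIMP3 and ADAMTS2, and the ranges of neighbors in that order did not overlap over the 6 libraries. Between 5 and 100 FPKM lay 7 members, MMP19, ADAMTS5, ADAMTS9, ADAMTS7, ADAMTS10, ADAMTS15 and ADAMTS6, where ADAMTS9 could not be ordered against ADAMTS7, nor ADAMTS15 against ADAMTS6, because their ranges overlapped. Another 11 members lay between 0.5 and 5 FPKM. The remaining 19, made up of 12 MMP and 7 ADAMTS genes, fell short of a mean of 0.5 FPKM and went untested. All 4 TIMP genes were tested, and so were 8 of 20 MMP genes and 12 of 19 ADAMTS genes. Just inside the limit was MMP28 at a mean of 0.551 FPKM, and just outside were ADAMTS14 at 0.495, ADAMTS12 at 0.456 and MMP15 at 0.437 FPKM. Together the 43 members made up 1.22% to 1.29% of all FPKM in a library.

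**Figure D1:**
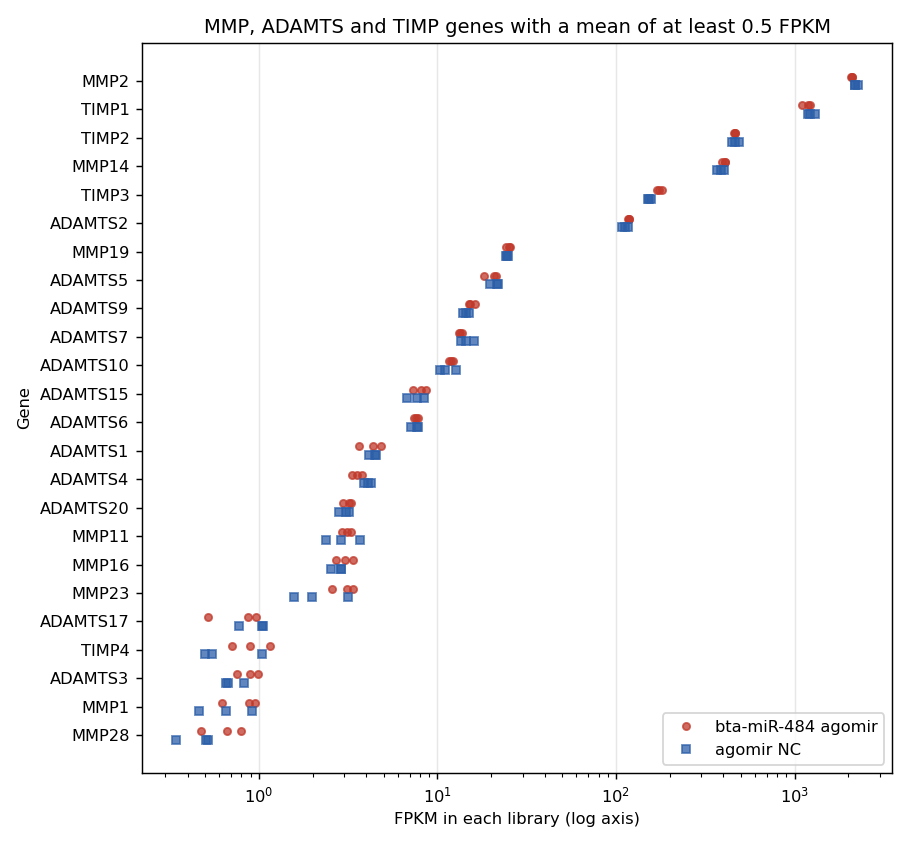
FPKM of the 24 members that passed the limit of 0.5 FPKM, on a log axis, with circles for the 3 bta-miR-484 agomir libraries and squares for the 3 agomir NC libraries. MMP2 lies highest in every library, TIMP1 follows, and the points of a gene spread more widely in the lower part of the plot, where means are under 5 FPKM.

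The gelatinases cut denatured collagen and the type IV collagen of basement membranes. MMP2, gelatinase A, ranked 10 among all genes by mean FPKM. Its level was 2084, 2101 and 2094 FPKM in agomir replicates 1 to 3, and 2181, 2278 and 2177 FPKM in agomir NC replicates 1 to 3. Every agomir library was lower than every agomir NC library, with a gap of 76.0 FPKM, and the agomir libraries lay much closer together. The means were 2093 ± 8.90 FPKM (SD, n = 3) in the agomir group and 2212 ± 57.1 FPKM (SD, n = 3) in the agomir NC group, a difference of -5.38%. On the log2 scale, the fold change was -0.08 (standard error 0.038, 95% interval -0.17 to 0.01), and limma's unadjusted p was 0.0655, or 0.491 after adjustment. With 1 library left out, this p ranged from 0.0330, without agomir NC replicate 3, to 0.163. It was 0.0283 with median-ratio scaling and 0.0148 after the correction for gene span. Quantile normalization, which gives every library the same distribution of values, gave a log2 fold change of -0.02 and a p of 0.493. That method replaces each value by the mean over libraries at its rank, so a gene that keeps its rank shows no difference. For a gene ranked as high as MMP2, this setting therefore says little about a difference. MMP9, gelatinase B, was near 0 beside MMP2. Its FPKM values were 0.285, 0.109 and 0.285 with the agomir and 0.334, 0.435 and 0.432 with the agomir NC. The groups did not overlap, and the exact permutation p was 0.1, the smallest possible, but its mean was under 0.5 FPKM and it was not tested with limma in the main comparison.

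Membrane-type MMPs are anchored to the cell surface, and MMP14 is known as an activator of proMMP2 and as a collagenase of fibrillar collagen. MMP14 was at 408, 406 and 394 FPKM in the agomir group versus 387, 401 and 367 FPKM in the agomir NC group. The highest agomir NC value, that of replicate 2, lay among the agomir values, so the groups overlapped. Its log2 fold change was 0.06 (standard error 0.043, 95% interval -0.03 to 0.16) with an unadjusted p of 0.163 in limma, but it moved with the scaling and with single libraries. Quantile normalization gave 0.11 with an unadjusted p of 0.0327. Without agomir NC replicate 2 the log2 fold change was 0.10 with an unadjusted p of 0.0493, and without agomir NC replicate 3 it was 0.03 with 0.448. The gene overlaps RBM23, at a mean of 18.6 FPKM, in the RefSeq annotation. MMP16, another membrane-type enzyme, was lower, between 2.54 and 3.36 FPKM, with a log2 fold change of 0.11 and overlapping groups. The other 4, MMP15, MMP17, MMP24 and MMP25, were under a mean of 0.5 FPKM, from 0.437 for MMP15 down to 0.0623 for MMP24, whose overlapping partner MMP24OS was higher at 3.99 FPKM.

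MMP2 and MMP14 together took 98.5% to 98.7% of the summed FPKM of all 20 MMP genes in each library. The ratio of MMP2 to MMP14, which does not depend on how a library is scaled as a whole, was 5.11, 5.18 and 5.31 with the agomir and 5.63, 5.68 and 5.94 with the agomir NC. The highest of the agomir libraries was therefore below the lowest of the agomir NC libraries. This ratio was formed after the values of both genes were seen and is given with no test. The summed MMP level was 2529, 2542 and 2525 FPKM with the agomir and 2602, 2715 and 2579 FPKM with the agomir NC. It separated the groups in the same direction as MMP2, which alone made up 82.4% to 84.4% of it.

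**Figure D2:**
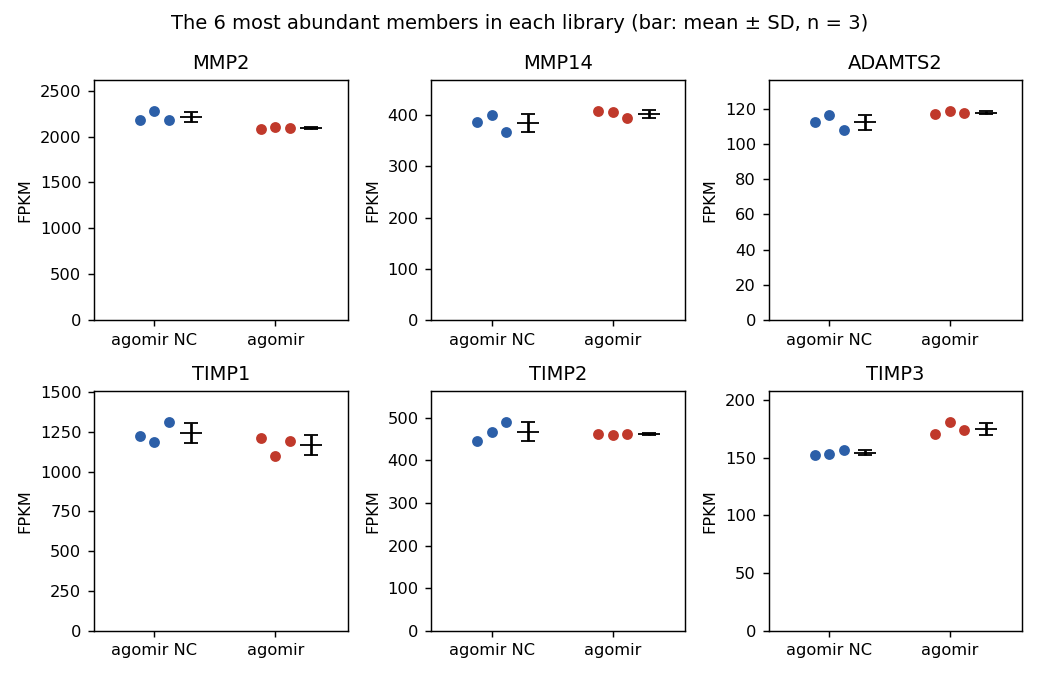
FPKM of the 6 most abundant members in each library, with 1 panel per gene, points for the 3 agomir NC and the 3 agomir libraries, and bars for mean ± SD (n = 3). The axes start at 0, and the groups lie apart without overlap for MMP2, ADAMTS2 and TIMP3 but share a range for MMP14, TIMP1 and TIMP2.

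The classical collagenases, which cleave the triple helix of fibrillar collagen, were at low levels. MMP1 ranged from 0.461 to 0.957 FPKM over the 6 libraries with a log2 fold change of 0.17 (standard error 0.18). This value was 0.04 without agomir NC replicate 3 and 0.32 without agomir NC replicate 2. MMP8 and MMP13 were listed at 0 in all 6. Of the stromelysins, which have a broad range of matrix substrates, MMP3 was listed at 0 in every library. MMP11, stromelysin 3, was at 2.38 to 3.68 FPKM, with both extremes in the agomir NC group and a log2 fold change of 0.07 (standard error 0.13). MMP7, a matrilysin, was above 0 in 1 library, at 0.0454 FPKM.

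MMP13, MMP12, MMP3, MMP1, MMP8, MMP27, MMP20 and MMP7 lie in a single cluster in the RefSeq gene order, in that sequence. All 8 were low in these cells, and MMP1 at 0.957 FPKM had the highest value of any of them in any library. MMP12, the macrophage elastase, was above 0 in 3 libraries and reached 0.308 FPKM. MMP27 and MMP20 were each above 0 in 2 libraries, at no more than 0.111 FPKM. A value of 0 here means only that the gene was listed at 0, since the read depth behind it is unknown. The abundant MMP2, MMP14 and MMP19 all lie outside this cluster.

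Among the remaining MMPs, MMP19, a secreted enzyme with basement membrane proteins among its substrates, had the highest level. Its level was 25.6, 24.2 and 25.1 FPKM in the agomir group versus 24.5, 24.3 and 25.0 FPKM in the agomir NC group. The libraries of both groups were interleaved within a range of less than 2 FPKM, and the log2 fold change was 0.02 (standard error 0.049, 95% interval -0.09 to 0.13). MMP23, which carries a membrane anchor at its amino end, had the largest log2 fold change of the 24 members, at 0.39 (standard error 0.19, 95% interval -0.04 to 0.82, unadjusted p = 0.0691 in limma). Its FPKM values were 3.36, 2.58 and 3.10 with the agomir and 1.58, 1.98 and 3.18 with the agomir NC. Agomir NC replicate 3 lay within the agomir range and the other agomir NC libraries below it. With that library left out, its log2 fold change reached 0.63 with an unadjusted p of 0.00201 in limma, and without agomir NC replicate 1 it was 0.21, below the 0.29 of MMP28. Without agomir NC replicate 2 it was 0.34, below the 0.46 of TIMP4, so both the value and its rank depend on single libraries. Its unadjusted p was 0.0403 with array weights, 0.0432 with the replicate block and 0.0448 after the correction for gene span. MMP28, epilysin, was between 0.345 and 0.794 FPKM, with a log2 fold change of 0.25 (standard error 0.17) and overlapping groups.

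ADAMTS2, ADAMTS3 and ADAMTS14 remove the amino-terminal propeptide of fibrillar procollagens. ADAMTS2 was the most abundant ADAMTS gene, with 55.0% to 57.6% of the summed FPKM of the 19 genes. Its level was 117.0, 118.7 and 117.9 FPKM in the agomir group versus 112.9, 116.6 and 107.8 FPKM in the agomir NC group. The groups did not overlap, but the gap between them was only 0.442 FPKM, and the lowest value was that of agomir NC replicate 3. Means of 118 ± 0.871 and 112 ± 4.39 FPKM (SD, n = 3 each) differed by 4.86%. The log2 fold change was 0.07 (standard error 0.042), with an unadjusted p of 0.132 in limma, and it was 0.02 after the correction for gene span. ADAMTS3 was at 0.659 to 0.994 FPKM, with a log2 fold change of 0.18 (standard error 0.14), and ADAMTS14 was just under the limit for testing.

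Of the ADAMTS proteases that cut aggrecan and versican, 6 of 7 were tested, and none had a p under 0.05 in limma. ADAMTS5, known as a major aggrecanase, was at 21.3, 20.6 and 18.2 FPKM in the agomir group versus 21.5, 21.8 and 19.8 FPKM in the agomir NC group. In both groups replicate 3 was lowest, the groups overlapped, and the log2 fold change was -0.07 (standard error 0.070). ADAMTS9, which also acts on versican, was at 15.01, 16.3 and 15.2 FPKM in the agomir group versus 15.1, 14.4 and 13.9 FPKM in the agomir NC group. Only agomir NC replicate 1 reached into the agomir range, and the log2 fold change was 0.10 (standard error 0.060, unadjusted p = 0.147 in limma). ADAMTS15 was at 8.05, 8.68 and 7.32 FPKM in the agomir group versus 8.37, 7.74 and 6.74 FPKM in the agomir NC group, which overlapped, with a log2 fold change of 0.07 (standard error 0.094).

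ADAMTS4, the other classical aggrecanase, was lower in every agomir library. Its level was 3.796, 3.324 and 3.546 FPKM in the agomir group versus 3.892, 4.098 and 4.273 FPKM in the agomir NC group, with a gap of 0.0960 FPKM between the groups. Means of 3.56 ± 0.236 and 4.09 ± 0.191 FPKM (SD, n = 3 each) differed by -13.0%. On the log2 scale, the fold change was -0.18 (standard error 0.088, 95% interval -0.38 to 0.02), with an unadjusted p of 0.0711 in limma and an adjusted p of 0.503. Its p was 0.0331 without limma's variance trend, and between 0.0543 and 0.193 with 1 library left out. ADAMTS1 lay at about the same level, between 3.64 and 4.84 FPKM, with both extremes in the agomir group and a log2 fold change of -0.04 that turned positive when agomir replicate 1 was left out. ADAMTS20 was at 2.80 to 3.30 FPKM with a log2 fold change of 0.05, and ADAMTS8 was above 0 in 2 libraries, at no more than 0.0287 FPKM.

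ADAMTS7 and ADAMTS12 are known for cutting cartilage oligomeric matrix protein. ADAMTS7 was at 13.4, 13.8 and 13.2 FPKM in the agomir group versus 14.6, 16.1 and 13.6 FPKM in the agomir NC group. Agomir replicate 2 was above agomir NC replicate 3, so the groups overlapped narrowly. Its log2 fold change was -0.13 (standard error 0.070, unadjusted p = 0.102 in limma), and without agomir NC replicate 3 it was -0.18 with a p of 0.0299. Without agomir NC replicate 2 it was -0.06 with a p of 0.373, and after the correction for gene span -0.15 with a p of 0.0490. ADAMTS12 was below the limit for testing, at 0.321 to 0.646 FPKM.

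ADAMTS10 and ADAMTS6 are related proteases, and ADAMTS10 is linked to fibrillin microfibrils. ADAMTS10 was at 11.9, 12.3 and 11.7 FPKM in the agomir group versus 11.1, 12.7 and 10.4 FPKM in the agomir NC group. The agomir NC libraries held both the highest and the lowest value, and the log2 fold change was 0.07 (standard error 0.078). ADAMTS6 was at 7.40, 7.81 and 7.58 FPKM in the agomir group versus 7.70, 7.78 and 7.08 FPKM in the agomir NC group, with overlapping groups and a log2 fold change of 0.02 (standard error 0.070). It overlaps CWC27, which had a similar mean of 6.18 FPKM, and because the use of strand in the estimation is not stated, reads shared by the pair of genes cannot be told apart. ADAMTS17 had the lowest log2 fold change of the members, -0.19 (standard error 0.17), at 0.517 to 1.06 FPKM with overlapping groups. Agomir replicate 1 held its lowest value, and without that library it was -0.03, above the -0.22 of ADAMTS4. Without agomir NC replicate 1 it was -0.14, above the -0.21 of ADAMTS4, and without agomir NC replicate 3 it was -0.15, above the -0.18 of ADAMTS7. It was also above ADAMTS4 with quantile normalization, at -0.18 against -0.19, and with a pseudocount of 1, at -0.14 against -0.16. ADAMTS16, ADAMTS18, ADAMTS19 and ADAMTS13, the last of which cuts von Willebrand factor, were at no more than 0.0703 FPKM in any library.

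TIMP1 was the most abundant inhibitor and ranked 25 among all genes. Its level was 1213, 1095 and 1190.0 FPKM in the agomir group versus 1225, 1184 and 1309.6 FPKM in the agomir NC group. Agomir replicate 2 was lowest and agomir NC replicate 3 highest, and the other 4 libraries lay close together. The log2 fold change was -0.09 (standard error 0.053, 95% interval -0.21 to 0.03), with an unadjusted p of 0.128 in limma. Quantile normalization gave a log2 fold change of 0, the value it gives to any gene whose rank is the same in all libraries. It is therefore no estimate of the difference in TIMP1. TIMP2, which also takes part in the activation of proMMP2 by MMP14, was at 463, 458 and 462 FPKM in the agomir group versus 445, 466 and 489 FPKM in the agomir NC group. The agomir values all lay inside the wider agomir NC range, and the log2 fold change was -0.02 (standard error 0.043, 95% interval -0.11 to 0.08).

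TIMP3 differs from the other inhibitors in binding to the matrix and in inhibiting several ADAMTS and ADAM proteases as well as MMPs. Its level was 171, 181 and 174 FPKM in agomir replicates 1 to 3, and 152, 154 and 157 FPKM in agomir NC replicates 1 to 3. All 3 agomir libraries were above all 3 agomir NC libraries, and the gap of 14.1 FPKM exceeded the range within either group. The means were 175 ± 5.18 FPKM (SD, n = 3) in the agomir group and 154 ± 2.22 FPKM (SD, n = 3) in the agomir NC group, a difference of 13.6%. On the log2 scale, the fold change was 0.18 (standard error 0.039, 95% interval 0.10 to 0.27, or 1.07-fold to 1.21-fold). In limma the unadjusted p was 0.000987, and the adjusted p over all genes was 0.218, so the difference was larger than the spread between replicates but did not pass correction for the number of genes. In the exact permutation test p was 0.1, its lower limit here. Over the 16 alternative settings the log2 fold change stayed between 0.16 and 0.21 and the unadjusted p between 0.000260 and 0.0116, while the adjusted p ranged from 0.148 to 0.498. Without agomir NC replicate 3, the log2 fold change was 0.19. TIMP3 overlaps SYN3 in the annotation, a gene at no more than 0.123 FPKM in any library.

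TIMP4 was the scarcest inhibitor, at 0.894, 0.705 and 1.16 FPKM in the agomir group versus 0.503, 1.04 and 0.548 FPKM in the agomir NC group. Agomir NC replicate 2 was the second highest of the 6 libraries, the groups overlapped, and the log2 fold change was 0.26 (standard error 0.20, 95% interval -0.19 to 0.71). Without agomir NC replicate 2 it was 0.46, with an unadjusted p of 0.0363, whereas without agomir replicate 3 it was 0.14, with an unadjusted p of 0.534. TIMP1, TIMP2 and TIMP4 overlap SYN1, CEP295NL and SYN2 in the annotation, which had means of 0.984, 0.0980 and 0.336 FPKM, so that SYN2 alone was near the level of its partner.

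**Figure D3:**
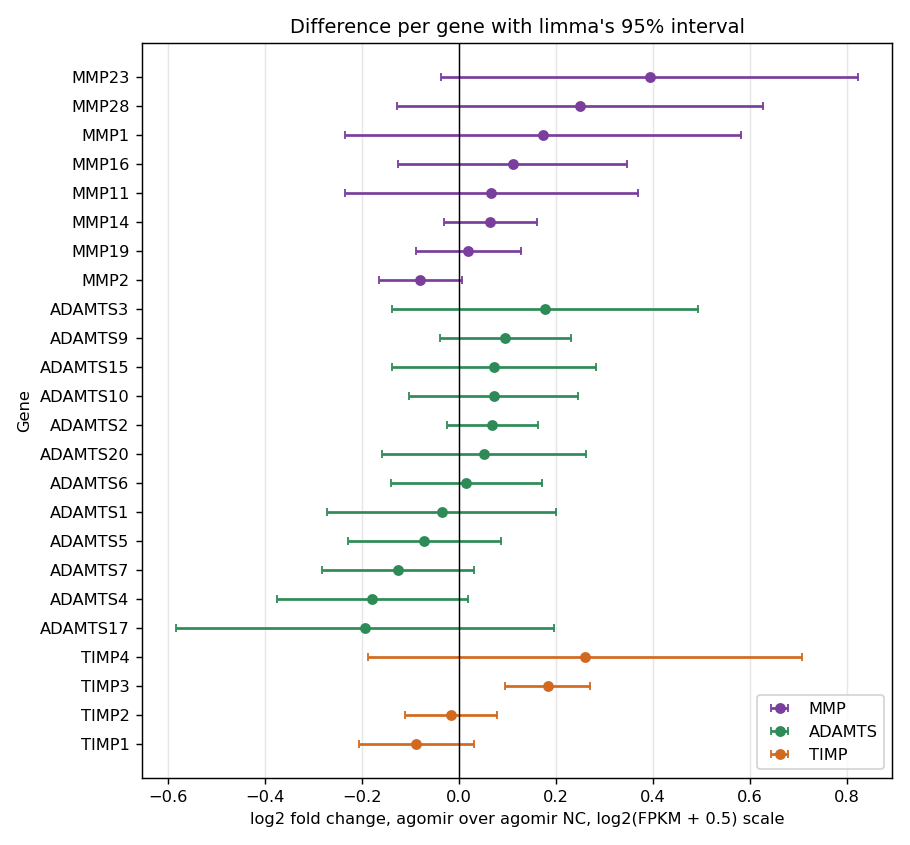
Log2 fold change of agomir over agomir NC on the log2(FPKM + 0.5) scale for the 24 members tested, grouped as MMP, ADAMTS and TIMP, with limma's 95% interval as bars. The interval of TIMP3, 0.10 to 0.27, lies wholly above 0, and the intervals of the other 23 members include 0.

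Expressed as shares of the summed TIMP level, TIMP1 made up 63.1% to 67.2%, TIMP2 24.4% to 26.4% and TIMP3 8.001% to 10.4% in the 6 libraries. The share of TIMP3 was 9.23%, 10.4% and 9.51% with the agomir and 8.35%, 8.51% and 8.001% with the agomir NC, again without overlap. The ratio of MMP2 to TIMP3 in FPKM was 12.2, 11.6 and 12.1 with the agomir and 14.3, 14.8 and 13.9 with the agomir NC. The groups were apart in this ratio, as they were for MMP2 and for TIMP3 singly, which lay in opposite directions. In contrast, the sum of MMP genes over the sum of TIMP genes was between 1.32 and 1.505 and overlapped between the groups. The ratio of MMP2 to TIMP2 overlapped as well, at 4.45 to 4.90. These shares and ratios describe RNA, formed after the single genes were seen, and carry no test.

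The precision differed with level. For the 6 members at 100 FPKM or more, the median coefficient of variation was 1.29% in the agomir group and 4.21% in the agomir NC group, and the 95% intervals reached 0.09 to 0.12 to either side of the log2 fold change. From 5 to 100 FPKM they reached 0.11 to 0.21, and from 0.5 to 5 FPKM 0.20 to 0.45. A log2 fold change as large as that of TIMP3 is therefore smaller than the reach of the interval for every member of the lowest class. With 1 library left out, the log2 fold change of 20 of the 24 members moved by over 1.5 times or changed sign in at least 1 case, and the exceptions were TIMP3, MMP2, ADAMTS4 and ADAMTS3.

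Other genes of matrix proteolysis were counted by lists, in the same limma fit and at an unadjusted p under 0.05, with no gene of any list under an adjusted p of 0.05 (lowest 0.248). Calls on list genes are those of the main fit and were not followed under the alternative settings or with a library left out. The shares of all genes to set beside these counts are again 6.63% higher and 4.31% lower, and the median over all genes is 0.01. Where groups of a list gene are said not to overlap, the shares of all genes are 10.9% with the agomir higher and 6.36% with it lower. Of the 8 ADAM proteases, which shed proteins from the cell surface, 0 were higher and 1 was lower. That was ADAM8, at a log2 fold change of -0.13 (unadjusted p = 0.0444) with overlapping groups. ADAM9 had the highest level of that list at a mean of 75.2 FPKM, and the median log2 fold change of the list was 0.05. ADAM10 and ADAM17, sheddases known as targets of TIMP inhibition, were above the agomir NC libraries in every agomir library, but their log2 fold changes of 0.10 and 0.07 did not pass the test. None of the 4 ADAMTS-like and papilin genes tested passed, and ADAMTSL4 was the most abundant of them at 74.6 FPKM, with a list median of 0.04. ADAMTSL1 lay higher in every agomir library, at a log2 fold change of 0.19 (unadjusted p = 0.0708 in limma). ADAMTSL4 lay the other way, at -0.11 (unadjusted p = 0.0699 in limma), with overlapping groups.

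Of the 3 genes tested for the removal of procollagen carboxyl-terminal propeptides, PCOLCE, which enhances that cleavage, was lower. Its level was 407, 402 and 404 FPKM in the agomir group versus 422, 456 and 458 FPKM in the agomir NC group, with no overlap. Its log2 fold change was -0.14 (unadjusted p = 0.00907), and the median of the 3 was -0.03. Of 4 proprotein convertases, which can activate proenzymes of the MMP14 and ADAMTS kind, FURIN was higher, at 18.9, 19.5 and 19.9 FPKM in the agomir group versus 17.9, 17.8 and 16.3 FPKM in the agomir NC group, a log2 fold change of 0.16 (unadjusted p = 0.0197) beside a list median of 0.07. Among 6 genes of the plasminogen system, PLAT, a plasminogen activator, was higher with a log2 fold change of 0.11 (unadjusted p = 0.0442), and SERPINE2, an inhibitor of plasminogen activators and thrombin and the most abundant of the list at 578 FPKM, was lower with -0.10 (unadjusted p = 0.0265). The median of these 6 was 0.01.

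Other inhibitors, receptors and inducers of metalloproteinases gave 1 of 6 higher and 0 lower. The gene was TFPI2, a matrix-associated inhibitor of serine proteases, at 101, 105 and 110 FPKM in the agomir group versus 91.0, 76.4 and 94.0 FPKM in the agomir NC group. All agomir libraries were above all agomir NC libraries, with a log2 fold change of 0.28 (standard error 0.074, unadjusted p = 0.00415). RECK, a membrane-anchored inhibitor of MMPs, and BSG, an inducer of MMPs with a mean of 492 FPKM, had log2 fold changes of 0.02 each, which was also the median of the list. SPOCK1, a secreted proteoglycan of low level, lay the other way from TFPI2, at 0.387 to 0.642 FPKM in the agomir group versus 0.670 to 0.839 FPKM in the agomir NC group. Its log2 fold change of -0.32 was the largest in size of the list and did not pass the test (unadjusted p = 0.0689). Of 11 cathepsins, lysosomal proteases, CTSF was lower with a log2 fold change of -0.26 (unadjusted p = 0.0235) and overlapping groups. CTSK was the most abundant at 722 FPKM. The median of the cathepsins was -0.05, with 8 below 0 and 3 above.

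Substrates of these enzymes were among the most abundant RNAs, led by COL3A1 at a mean of 7623 FPKM. Of 14 tested, 1 was lower and 0 were higher, and the median log2 fold change was 0.03. ELN, which encodes elastin, lay higher in every agomir library at a log2 fold change of 0.08 but did not pass the test. The lower one was DCN, a collagen-binding proteoglycan, at 2840, 2899 and 2850 FPKM in the agomir group versus 2991, 3102 and 3248 FPKM in the agomir NC group, a log2 fold change of -0.12 (unadjusted p = 0.0196). DCN also belongs to the mesenchymal markers, of which 0 of 7 tested were higher and 1 was lower. The median log2 fold change of these markers was -0.07, with 5 below 0 and 2 above, a size near that of MMP2. ENG, another of them, also lay lower in every agomir library, at a log2 fold change of -0.08 that did not pass the test. Whether these differences have a part in the values of MMP2 or TIMP3 was not tested. Of the 3 adipocyte markers tested, FABP4 was lower, with a log2 fold change of -0.49 (unadjusted p = 0.0160). FABP4 was at no more than 3.57 FPKM with overlapping groups, and its part was likewise not tested. The other adipocyte markers tested lay the other way, PLIN1 at 0.14 and LPL at 0.06, which was also the median of the 3, and neither passed the test. No marker of the endothelial, leukocyte or smooth muscle lists passed the test.

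AP-1 and ETS transcription factors, known regulators of MMP and TIMP promoters, gave 3 of 10 tested genes higher and 1 lower, with a median log2 fold change of 0.06. JUN was at 19.1, 20.04 and 18.4 FPKM in the agomir group versus 16.8, 14.97 and 15.9 FPKM in the agomir NC group, with no overlap, and its log2 fold change was 0.27 (unadjusted p = 0.00173). JUND and FOSL1 had log2 fold changes of 0.15 (unadjusted p = 0.00942) and 0.11 (unadjusted p = 0.0445), and FOS was lower with -0.21 (unadjusted p = 0.0238). JUNB, the most abundant of the list at 180 FPKM, had a log2 fold change of -0.03. A part of these factors in the level of any MMP, ADAMTS or TIMP gene was not tested.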

How the data were processed

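RNA from 6 samples was sequenced, and the values the authors deposited are FPKM, for each gene in each library. The submitters' processing notes name fastp, HISAT2, StringTie and the build ARS-UCD1.2, with no roles or options. Whole reads could not be recovered, and counting error is unknown: among 1538 low genes, log2 ratios between libraries showed no steps, with at most 7 genes per bin of width 0.002.

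Values of genes whose mean reached 0.5 FPKM were taken as log2(FPKM + 0.5) and fitted in limma 3.58.1 under R 4.3.3, with a variance trend, and p-values were adjusted by Benjamini-Hochberg over all 12422 genes. The fit was tested on simulated data. The members and gene lists were chosen with earlier results of these data known. Every library's value was given for TIMP genes, for members averaging 5 FPKM or more, and for members with an unadjusted p under 0.05 or groups that did not overlap. Of each list, the highest gene and those under that p were named, with every library's value for some. Which of these got such values was decided, and MMP9, MMP23, ADAM10, ADAM17, ADAMTSL1, RECK, SPOCK1, ELN, PLIN1 and ENG were described, after their values were seen.

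Alternatives were quantile normalization, scaling by median ratios, omission of the variance trend, array weights, a replicate block, omission of each library, pseudocounts of 0.1 and 1, and a mean of 1 FPKM or no limit as the filter. Removal of a trend with gene span was chosen after seeing the data. The RefSeq table of ARS-UCD2.0 gave symbols, spans and gene order, and there all 43 members and 11471 of the 12422 genes tested had a match. It differs from the build of the values, so no coordinates are given.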

Additional observations from a re-analysis of the deposited data

How the results depend on the processing

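Under every setting tried, 0 members had an adjusted p under 0.05. At an unadjusted p under 0.05, where 1 member was higher (TIMP3) and 0 were lower, the number higher was 2 with quantile normalization (MMP14 and TIMP3), and 2 with array weights and 2 after the correction for gene span (MMP23 and TIMP3 in each). The number lower was 1 with no filter (MMP9), 1 with median-ratio scaling (MMP2), 1 without the variance trend (ADAMTS4) and 2 after the correction for gene span (ADAMTS7 and MMP2). Deviations of equally numbered libraries from their group means had correlations of -0.051, 0.053 and 0.039, which showed no sign of pairing by number. What the numbers stand for is not stated. In the fit with a replicate block 2 members were higher (MMP23 and TIMP3) and 0 lower. With each library left out, 1 to 3 members were higher (3 without agomir NC replicate 2, with MMP14 and TIMP4 added, and 2 without agomir NC replicate 3, with MMP23 added), and 0 to 2 were lower (ADAMTS7 and MMP2 without agomir NC replicate 3). Among all genes tested, the share higher at an unadjusted p under 0.05 was 5.60% with quantile normalization, 6.59% with array weights, 5.70% after the correction for gene span, 5.94% with the replicate block, 5.28% without agomir NC replicate 2 and 5.93% without agomir NC replicate 3. The share lower was 3.45% with no filter, 5.80% with median-ratio scaling, 3.94% without the variance trend, 5.75% after the correction for gene span and 3.08% without agomir NC replicate 3. With a fold of at least 1.5 required as well, 0 to 1 members passed (MMP23 without agomir NC replicate 3). For all genes, this pair of conditions was counted in the main fit only, where 0.274% met it. Of 379 single-gene values under the alternatives, 355 kept their direction and their side of limma's unadjusted threshold, 13 crossed it in the same direction, 1 was 0 (TIMP1 with quantile normalization) and 10 changed sign, all for genes with small differences. The log2 fold change of ADAMTS6 was -0.0013 with median-ratio scaling, -0.0059 with quantile normalization and -0.026 after the correction for gene span, and that of TIMP2 was 0.018 with quantile normalization. With each library left out, it ranged from -0.025 to 0.039 for ADAMTS6, from -0.051 to 0.019 for TIMP2, from -0.12 to 0.066 for ADAMTS1, from -0.0079 to 0.14 for ADAMTS15 and from -0.062 to 0.21 for MMP11. The cause of these changes of sign was not tested. With depth unknown, a gene listed at 0 may still be expressed below what these libraries show.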
